A study of Drosophila melanogaster with 8 samples.

Results

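The Niemann-Pick type C (NPC) family of Drosophila comprises 10 genes in the deposited count table of 16727 genes, the Npc1 genes Npc1a and Npc1b and the Npc2 genes Npc2a to Npc2h, and all 10 were found by symbol. They were read in RNA from whole heads of flies carrying a 36-unit G4C2 repeat, the hexanucleotide that is expanded in C9orf72 in familial amyotrophic lateral sclerosis and frontotemporal dementia. The comparison asks which genes differ early after the repeat is switched on in adult neurons. All 8 libraries came from 7-d-old females of genotype (G4C2)36; elavGS in the w1118 background, with 15 heads pooled per library. The 4 induced libraries came from flies fed 200 µM RU486 (mifepristone) for 5 d, and the 4 uninduced libraries from flies fed the ethanol vehicle for 5 d. The labels call them biological replicates but do not say whether they came from separate cultures, so p-values measure the spread between these libraries. elavGS is a GeneSwitch driver whose activity in neurons depends on RU486. Among these 8 RNA libraries none had RU486 in the absence of the repeat, so an effect of the drug and an effect of the repeat cannot be told apart. The heads were sequenced whole, so counts sum over neurons and every other cell of the head.

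NPC1 is a large membrane protein of the lysosome and NPC2 a small soluble protein of its lumen. NPC2 takes up sterol released from lipoprotein particles and passes it to NPC1, which moves it to the lysosomal membrane, and human loss of either protein causes Niemann-Pick disease type C, in which cholesterol builds up in lysosomes and neurons degenerate. Flies cannot make sterols and take them from food, which makes uptake and export central to membranes and to the steroid hormone ecdysone. The fly has a broadly expressed NPC1 (Npc1a), an NPC1 of the midgut that serves sterol absorption (Npc1b), and a larger group of Npc2 genes, of which Npc2a and Npc2b overlap in sterol balance.

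Libraries held 13421396 to 14962813 counts in induced and 13247282 to 14192723 in uninduced heads. TMM scaling factors (edgeR) were 1.04 to 1.08 in induced and 0.913 to 0.954 in uninduced libraries, alongside a share of 21.4 to 23.8% of counts against 25.7 to 26.4% in the 20 most abundant genes. Among the induced libraries, replicate 1 stood apart from replicates 2 to 4 in several genes of the antenna. Obp83a, an odorant-binding protein of antennal support cells, had 4, 158, 177 and 189 counts in induced replicates 1 to 4, against 3, 7, 5 and 4 in the uninduced replicates. The odorant co-receptor Orco had 21, 76, 75 and 96 counts in induced heads, against 18, 24, 10 and 10 in uninduced heads. Only induced replicate 1 was thus as low in these genes as the uninduced libraries. In Obp69a and Obp84a it lay just above the uninduced range, at 1.16 and 2.38 CPM against at most 1.11 and 2.33 CPM. Of the 10 antennal and chemosensory markers, 8 were tested, and Obp83a and Obp83b did not pass the filter on low counts. Of the 8, 4 were higher and 1 (Obp19d, at -0.17) lower in induced heads. Among all genes tested, 17.7% were higher and 18.8% lower. The summed level of the 10 markers, most of it from Obp19d and Obp56d, was 1797 to 2046 CPM in induced and 2008 to 2347 CPM in uninduced heads. Over all genes the libraries split otherwise, by a chi-square of the counts of 2 libraries averaged over genes with enough counts. It was 4.48 for induced replicates 1 and 3 and 2.65 for 2 and 4, against 5.66 to 8.45 for the other induced pairs. Uninduced replicate 4 was at 8.44 to 11.8 against the rest of its group, whose own pairs were at 3.62 to 3.79. Results for Npc2g and Npc2h, and the counts of calls in the lists of other genes, are given below with and without induced replicate 1. Npc2g is also given without uninduced replicate 4.

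Of the 10 genes, 6 had enough counts to be tested (Npc1a, Npc2a, Npc2b, Npc2f, Npc2g and Npc2h). Per length, Npc2g had the most RNA of the family, followed by Npc2a, Npc2b, Npc2h, Npc1a and, far below, Npc2f, in both groups. The mean level of Npc2g fell by 21.5% in induced heads, against uninduced heads, and the levels of Npc1a, Npc2a and Npc2b moved by little, with 95% intervals of their log2 fold changes that all lay between -0.23 and 0.07. The remaining genes were near or at 0 in whole heads.

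**Figure D1:**
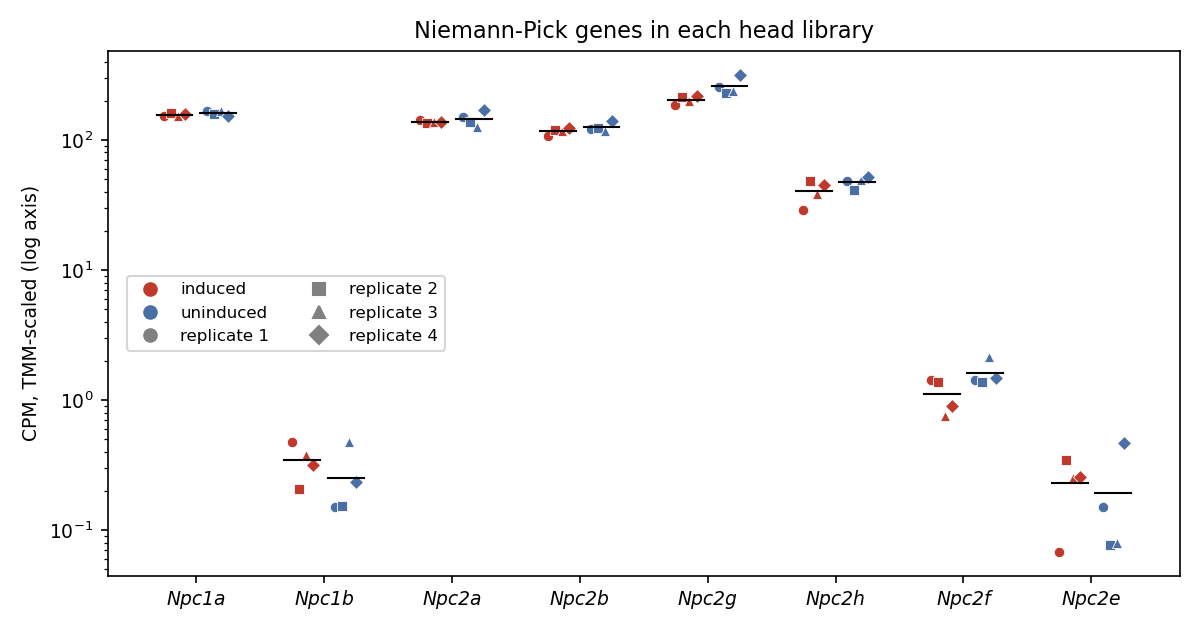
Normalized level of the Niemann-Pick genes in each library, as CPM (counts scaled to library size with TMM) on a log axis, with 1 symbol per library, induced to the left of uninduced for each gene, and lines at the group means. Npc2c and Npc2d had 0 counts in every library and are not drawn. The groups separate in Npc2g, at 184 to 216 CPM in induced and 230 to 318 CPM in uninduced heads, and overlap in the other 7 genes drawn.

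Npc1a lies on the minus strand of chromosome arm 2L (10213812 to 10221216, dm6), with 5198 bases of exon. Its level was 152, 160, 153 and 159 CPM in induced heads, against 165, 159, 167 and 152 CPM in uninduced heads. The groups overlapped throughout this narrow range, and the means of 156 ± 4.09 and 161 ± 6.65 CPM (SD, n = 4 each) differed by a log2 fold change of -0.05 (standard error 0.04, 95% interval -0.14 to 0.05, adjusted p = 0.453, quasi-likelihood test of edgeR adjusted by Benjamini-Hochberg over all genes tested). The interval leaves room for a change in Npc1a of at most 0.14 on the log2 scale at this scaling.

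Npc1b, the midgut gene (chromosome X, 20934869 to 20939503), had 7, 3, 6 and 5 counts in induced heads and 2, 2, 6 and 3 in uninduced heads. These are 21 and 13 counts in all, too few to pass the filter on low counts. Genes of the midgut were scarce in the same libraries. Of 12 midgut markers, among them digestive trypsins, 4 had 0 counts in every library and 3 were tested, and the summed level of the list was 17.7 to 23.4 CPM in induced and 19.1 to 26.7 CPM in uninduced heads. In edgeR, DESeq2 and limma-voom alike, 0 of these 3 passed an adjusted p of 0.05, and 1, the amylase Amy-p, had an unadjusted p under 0.05 (0.0376 in edgeR).

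Npc2a and Npc2b are the Npc2 genes with an established part in sterol balance and in the supply of sterol for ecdysone. Npc2a (2L, 1988290 to 1988940, plus strand, a single exon) had 143, 134, 136 and 138 CPM in induced heads, against 149, 137, 127 and 169 CPM in uninduced heads. The induced values fell inside the uninduced range (log2 fold change -0.08, standard error 0.07, 95% interval -0.23 to 0.07, edgeR adjusted p = 0.422). Uninduced replicate 4 was the highest, and without it the log2 fold change was 0.0089. Npc2b (3R, 14089517 to 14092425, plus strand) had 107, 120, 117 and 123 CPM in induced heads, against 121, 123, 117 and 139 CPM in uninduced heads. Here too the groups overlapped, with a log2 fold change of -0.10 (standard error 0.06, 95% interval -0.23 to 0.03, edgeR adjusted p = 0.229).

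The balance between the soluble and the membrane carrier was read as the ratio of Npc2a to Npc1a within each library, which does not depend on the scaling of libraries. On the log2 scale of CPM plus 0.1 it averaged -0.18 ± 0.07 in induced and -0.15 ± 0.23 in uninduced heads (SD, n = 4 each). The difference of -0.02 was smaller than the spread between replicates (exact two-sided permutation test, p = 0.829, where the smallest p that 4 against 4 libraries allow is 0.0286).

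Npc2g was the gene of the family that differed. It occupies 30744605 to 30745263 on the minus strand of 3R, in a single exon block of 659 bases, and its role is less well known than that of Npc2a. It had 2703, 3124, 3155 and 3389 counts in induced heads, against 3389, 3003, 3007 and 4082 in uninduced heads. Scaled for library size and composition, these were 184, 215, 199.9 and 216 CPM in induced heads, against 254, 229.9, 238 and 318 CPM in uninduced heads. All 4 induced libraries lay below all 4 uninduced libraries, although the raw counts overlapped. Npc2g averaged 204 ± 15.2 CPM in induced and 259.8 ± 39.7 CPM in uninduced heads (SD, n = 4 each). The log2 fold change was -0.35 (standard error 0.09, 95% interval -0.54 to -0.16, edgeR adjusted p = 0.00635; exact two-sided permutation p = 0.0286, the smallest possible). Npc2g was the only member called of the 6 tested, against 36.5% of the 9905 genes tested that were called in either direction (18.8% lower). It was also the only one whose groups did not overlap, against 36.0% of all genes tested. Calls were thus no more frequent in the family than among all genes, and the fall in Npc2g is a single-gene result.

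Uninduced replicate 4 contributed most to it, and without that library the log2 fold change of Npc2g was -0.23 (edgeR adjusted p = 0.00758). Scaling to library totals only, with no correction for composition, gave -0.17 with an adjusted p of 0.103, and 0 members were then called in edgeR, beside 54.1% of all genes. At an unadjusted p under 0.05 that scaling left 1 member, Npc1a, at a log2 fold change of 0.13 (unadjusted p = 0.0321, edgeR). That scaling moved the median of all genes to 0.18. Relative to this shift Npc2g was at -0.35, which puts a correction for composition back and is no separate test.

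Npc2h lies 215 bases from Npc2g on the same strand of 3R (30745479 to 30746290), with no gene between them. In Drosophila, Npc2h, like Npc2a and Npc2e, binds lipids of the bacterial cell wall and has been linked to immune signalling. It had 29.0, 48.7, 38.1 and 45.02 CPM in induced heads, against 47.9, 41.2, 49.2 and 52.0 CPM in uninduced heads. Induced replicates 1 and 3 lay below the uninduced range, and replicates 2 and 4 within it. Over all libraries Npc2h did not pass the test (log2 fold change -0.24, standard error 0.12, 95% interval -0.51 to 0.02, edgeR adjusted p = 0.145). The ratio of Npc2h to Npc2g did not differ beyond the spread between replicates either, by 0.08 on the log2 scale (exact permutation p = 0.571).

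**Figure D2:**
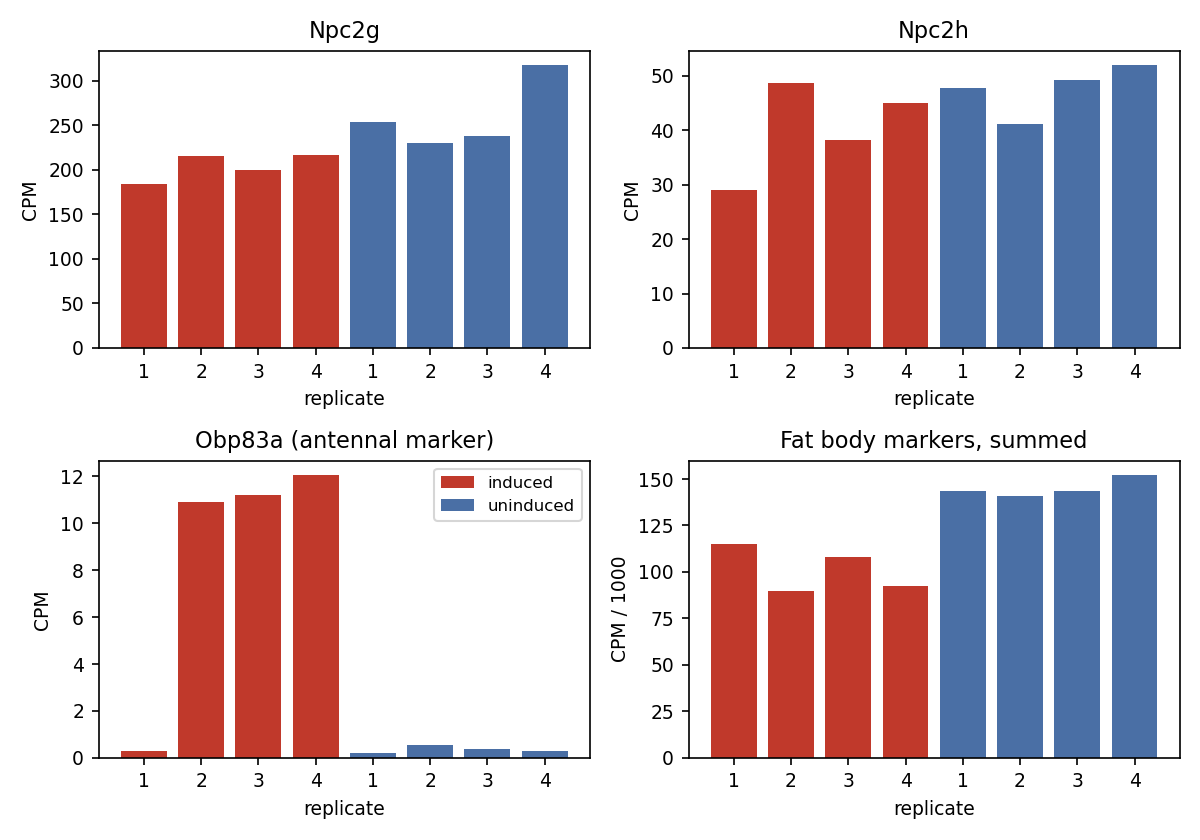
Levels of Npc2g and Npc2h (CPM, upper panels), the antennal marker Obp83a (CPM, lower left) and the summed fat body markers (CPM divided by 1000, lower right) in each library, with 1 bar per library and induced replicates 1 to 4 to the left of uninduced replicates 1 to 4. Induced replicate 1 is lowest in Npc2h at 29.0 CPM and low in Obp83a, whereas the fat body markers are lower in all 4 induced libraries.

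Without induced replicate 1, Npc2g was at -0.30 (edgeR adjusted p = 0.0224) and Npc2h at -0.12 (adjusted p = 0.359). Without induced replicate 2, Npc2h was at -0.35 (edgeR adjusted p = 0.0431). The size of the Npc2h difference thus turned on single libraries, in either direction. Induced replicate 1 was the only induced library as low in Obp83a and Orco as the uninduced libraries. By itself, it was at a log2 fold change of -0.50 for Npc2g and -0.71 for Npc2h relative to the 4 uninduced libraries. For Npc1a, Npc2a, Npc2b and Npc2f it was at -0.09, -0.02, -0.22 and -0.16. These are values of 1 library, which is the lowest of all in Npc2h, and its choice was made after the data were seen, so they are given as a description and not as a test. A fit of that library against the 4, in which it was assumed to vary like the others, called 15.1% of 10156 genes.

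Markers of the fat body were lower in induced heads, as was Npc2g. The fat body is a tissue of stored lipid and circulating carriers that also lies in the head. All 7 tested of 8 fat body markers were lower in induced heads (log2 fold changes -4.47 to -0.35, median -0.69). Their summed level was 89980 to 114810 CPM in induced and 140847 to 152278 CPM in uninduced heads, with none of the 8 at 0 throughout. Most of it came from the yolk protein genes Yp1, Yp2 and Yp3, with means of 44265, 23840 and 23295 CPM in induced heads. Uninduced replicate 4 was highest in both Npc2g and the fat body markers. Induced replicate 1 was lowest in Npc2g and highest among induced libraries in the fat body markers. Induced replicates 2 and 4 were higher in Npc2g (215 and 216 CPM) and lower in the fat body markers (89980 and 92453 CPM). These orders of 4 libraries, in a sum mostly of yolk protein genes, are a description with no test. The glial markers summed to 1790 to 1931 CPM in induced and 2057 to 2163 CPM in uninduced heads, with 3 of 9 higher and 3 lower. Eaat1 differed most among them, at a mean of 245 CPM in induced and 450 CPM in uninduced heads. The neuron markers summed to 3006 to 3205 CPM in induced and 2857 to 3166 CPM in uninduced heads. The 6 haemocyte markers summed to 229 to 285 CPM in induced and 181 to 217 CPM in uninduced heads, with 1 higher and 3 lower of 5 tested. The 1 higher was Pxn, the largest term by mean, at 163 CPM in induced and 75.6 CPM in uninduced heads. The part of the fat body, the glia, the haemocytes or the antenna in the Npc2g difference was not tested, and fewer cells of a type and less RNA per cell cannot be told apart in whole heads.

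Npc2f (3R, 24137895 to 24140936, plus strand) was detected at a trace. It had 21, 20, 12 and 14 counts in induced heads, against 19, 18, 27 and 19 in uninduced heads. Both groups were low and they overlapped, at 1.12 ± 0.339 CPM in induced and 1.60 ± 0.359 CPM in uninduced heads (SD, n = 4 each). The log2 fold change of -0.53 was the largest in the family but had a standard error of 0.25 and a 95% interval of -1.07 to 0.02 (edgeR adjusted p = 0.121), so its size was poorly resolved at this depth.

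Npc2c, Npc2d and Npc2e lie together on 3R, between 10053332 and 10061136, in the order Npc2e, Npc2d and Npc2c and with no gene annotated wholly between neighbours. Npc2c and Npc2d had 0 counts in all 8 libraries, which allows up to 3 counts per library, or a level of up to 0.238 CPM in the library with the smallest TMM-scaled size. Npc2e, which binds bacterial lipids in vitro, had 1, 5, 4 and 4 counts in induced heads and 2, 1, 1 and 6 in uninduced heads. Of its exons, 611 bases are overlapped by the antisense RNA CR44192, which had 2 to 7 counts per induced and 1 to 9 per uninduced library. Whether reads were counted by strand is not stated in the sources used here, so the few counts of Npc2e cannot be assigned to it alone. The Npc2 genes are paralogs, and how reads matching several of them were counted is not given either.

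To compare levels between genes, CPM was divided by the length of the exons in kilobases. Npc2g stood at 309.5 in induced and 394 in uninduced heads on this scale, Npc2a at 212 and 223, Npc2b at 127 and 135, Npc2h at 49.5 and 58.6, Npc1a at 29.9 and 30.9, and Npc2f at 1.57 and 2.25. The order was the same in both groups, and the ranges of neighbours in this order did not overlap, save for Npc2e and Npc1b at the bottom. Npc2g was 1.46 times Npc2a in induced heads and 1.77 times Npc2a in uninduced heads. Among 9796 genes with a length, Npc2g ranked 205 from the top in induced and 197 in uninduced heads. The soluble Npc2 branch was therefore represented by 4 genes above the membrane carrier Npc1a, with Npc1a ranked 2111 and 2114.

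The family as a whole summed to 617, 680, 645 and 682 CPM in induced heads, against 739, 691, 700.3 and 832 CPM in uninduced heads. These sums did not overlap, whereas the family's share of all counts, 0.0639 to 0.0737% in induced and 0.0658 to 0.0759% in uninduced heads, did. Npc2g, the largest term, made up 29.9 to 31.7% of the family's counts in induced and 33.3 to 38.2% in uninduced heads. The share of Npc1a was 23.3 to 24.6% in induced and 18.3 to 23.8% in uninduced heads. Within libraries, the ratio of Npc2g was lower in induced heads by 0.29 to Npc1a, by 0.27 to Npc2a and by 0.24 to Npc2b on the log2 scale, without overlap between the groups. The ratio to Npc2f was higher by 0.17 (exact permutation p = 0.543), and the groups overlapped in it and in the ratio to Npc2h. Each ratio without overlap had an exact two-sided permutation p of 0.0286, the smallest possible, and 0.143 after Benjamini-Hochberg adjustment over the 15 pairs of tested members. These ratios share their numerator and restate the fall in Npc2g. The share of all genes whose ratio to Npc2g did not overlap was not computed. With 4 libraries per group, the ratios of a single member could not by themselves have passed that adjustment, whatever their size. All 6 tested members had a negative log2 fold change, with a median of -0.17 beside 0.0011 for all genes tested.

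**Figure D3:**
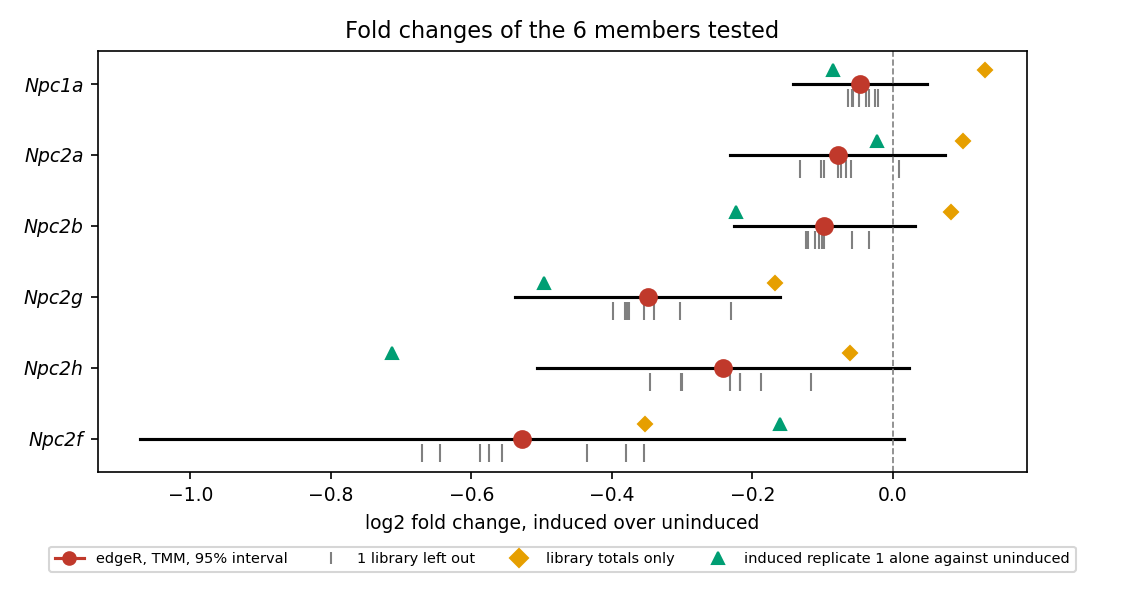
Log2 fold changes, induced over uninduced, of the 6 members tested. Circles and lines give the edgeR estimate with its 95% interval, ticks the fits that left out 1 library, diamonds the scaling to library totals only and triangles induced replicate 1 by itself against the 4 uninduced libraries. The interval of Npc2g, -0.54 to -0.16, excludes 0, those of the other 5 members include it, and the diamonds of Npc1a, Npc2a and Npc2b lie above 0.

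The gene nearest to Npc2g in its profile over the 8 libraries was Ada, an adenosine deaminase, with a root mean square difference of 0.0456 on the log2 scale of CPM plus 0.5, out of 9137 genes compared. Ada was low, at 2.32 to 2.83 CPM in induced and 2.76 to 4.36 CPM in uninduced heads. At that level counting error is large, and the closeness of its profile was not tested. Its log2 fold change was -0.41 (edgeR adjusted p = 0.0680). CG6463, named ND-13B in the current annotation and encoding a subunit of mitochondrial complex I, followed with 0.0626 and was lower in induced heads (log2 fold change -0.34, edgeR adjusted p = 0.00117). The neighbouring gene Npc2h ranked 928 in this order and Npc1a 3312. The other members of the family were thus not among the profiles nearest to Npc2g.

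Genes that work beside the NPC proteins were followed in 7 lists, with 51 tested of 60 genes matched, of which 10 were higher and 24 lower in induced heads (median log2 fold change -0.16), beside 17.7% higher and 18.8% lower among all genes tested. Without induced replicate 1, 8 were higher and 24 lower. Among the lipid carriers of the haemolymph and lipid receptors of the cell surface, 9 of 10 tested were lower, and all 10 had a negative log2 fold change, with a median of -0.36. The scavenger receptor ninaD, which takes up carotenoids, was at 19.6 ± 7.69 CPM in induced and 58.3 ± 13.9 CPM in uninduced heads (SD, n = 4 each; log2 fold change -1.57, edgeR adjusted p = 4.8e-05). The lipophorin precursor apolpp, the main lipid carrier of the haemolymph and also a fat body marker, was lower, with a log2 fold change of -0.49, and 772 bases of its exons lie opposite other annotated elements. pes, another scavenger receptor, was at -0.43. Apoltp, at -0.11 (edgeR adjusted p = 0.234), was the member not called.

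Lysosomal proteins were the other list that was mostly lower. Of 13 tested of 15, 11 were lower in induced heads and all 13 had a negative log2 fold change, with a median of -0.42. Scaling to library totals only left 7 lower, and leaving out induced replicate 1 left 11. The fat body markers were lower in the same libraries (all 7 tested, median -0.69), and their part in this list was not tested. spin, a permease that exports products of digestion from the lysosome, was at 223 ± 14.9 CPM in induced and 446 ± 12.1 CPM in uninduced heads (SD, n = 4 each; log2 fold change -1.003, standard error 0.05, edgeR adjusted p = 4.9e-09). The cathepsins Cp1 and CtsB, proteases of the lumen, were at -0.57 and -0.52, and 283 bases of the exons of Cp1 are shared with CG42806 on the same strand. Hexo1 and Hexo2, at -0.08 and -0.18, were not called, and trpml was at 0 in every library.

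Set within each library against these 13 lysosomal genes, Npc1a and Npc2a were higher relative to 13 of 13 in induced heads, by 0.04 to 0.96 for Npc1a and by 0.01 to 0.93 for Npc2a on the log2 scale. Each was higher without overlap between the groups for 10 of the 13, the exceptions being Hexo1, Hexo2 and Mitf, beside 12.1% of all other tested genes for Npc1a and 9.85% for Npc2a. These ratios were chosen after the values were seen, share their numerators and restate the small differences of the carriers beside the falls of this list, so they are a description with no test.

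**Figure D4:**
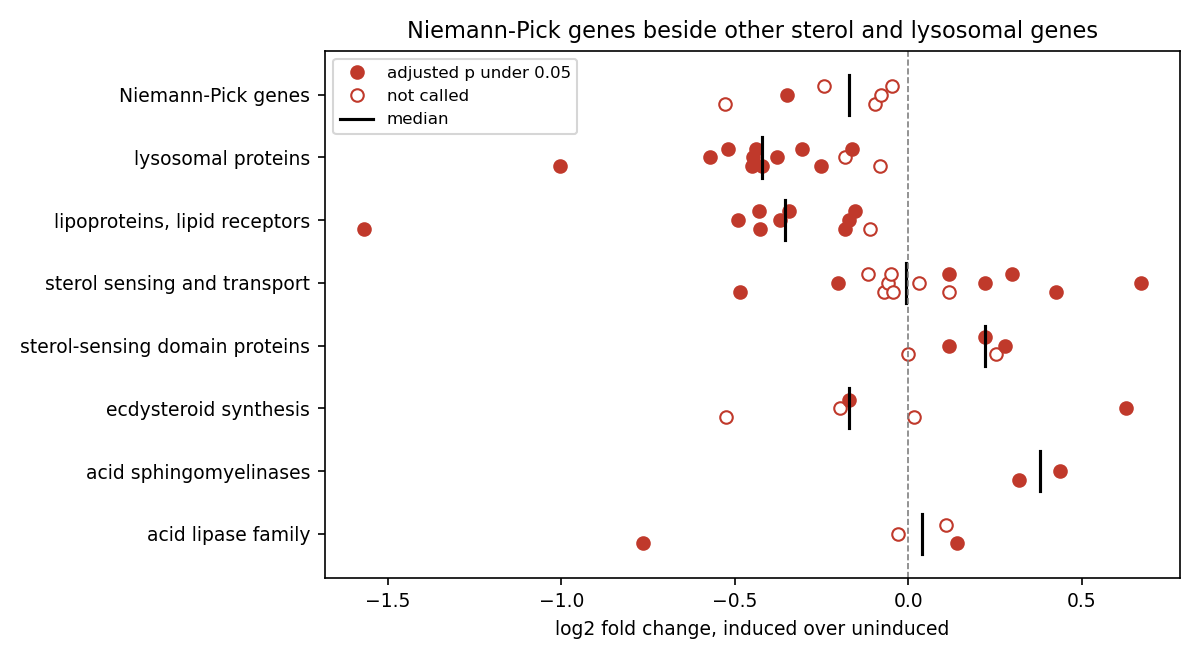
Log2 fold changes, induced over uninduced, of the tested Niemann-Pick genes and of 7 lists of other sterol and lysosomal genes, with filled circles for an edgeR adjusted p under 0.05, open circles for genes not called and bars at the medians. The lysosomal proteins (median -0.42) and the lipoproteins and lipid receptors (median -0.36) lie mostly below 0, and the Niemann-Pick genes have a median of -0.17 with 1 of 6 called.

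The genes that sense and carry sterols outside the lysosome went both ways. Of 14 tested of 15, 5 were higher and 2 lower in induced heads, with a median of -0.01. CG1513, of the oxysterol-binding protein family, was at 217 ± 7.69 CPM in induced and 137 ± 7.04 CPM in uninduced heads (SD, n = 4 each; log2 fold change 0.67, edgeR adjusted p = 1.3e-07), with 349 bases of exon shared with genes of the opposite strand. Its relatives Osbp and CG3860 were at 0.30 and -0.20, and CG3860 was at -0.03 and not called with scaling to library totals only. CG8112, related to the acyltransferases that esterify sterols, was at 0.42. All 2229 bases of its exons lie opposite Cks85A, and as the strand mode is not given, its counts cannot be assigned to it alone. ScpX, a peroxisomal sterol carrier protein, was at -0.49 (edgeR adjusted p = 9.1e-06).

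Proteins that share the sterol-sensing domain of NPC1 numbered 5, all tested, with 3 higher in induced heads. disp, which releases lipid-modified Hedgehog, was at 0.28 (edgeR adjusted p = 5.1e-04) and SCAP, the escort of SREBP, at 0.12. SCAP had an adjusted p of 0.0454 and missed the threshold in 11 of 17 alternatives. CG34287 lies opposite 92 bases of the exons of disp. The NPC1 gene itself, Npc1a, was at -0.05.

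Among the acid sphingomyelinases, relatives of the enzyme lost in the human Niemann-Pick diseases of types A and B, CG3376 and CG32052 were the tested genes and both were higher. CG3376 was at 113 ± 18.0 CPM in induced and 83.2 ± 6.01 CPM in uninduced heads (SD, n = 4 each; log2 fold change 0.44, edgeR adjusted p = 0.00219), and CG32052 was at 0.32, with 258 bases of exon shared with Ilp1 on the same strand. In the acid lipase family, which includes enzymes that split sterol esters and triglycerides, Lip4 was higher at 0.14 and Lip2 lower at -0.76 of 4 tested, and Lip4 missed the threshold in 6 of 17 alternatives.

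For sterol use in hormone synthesis, 5 of 9 ecdysteroid genes were tested, with 1 higher and 1 lower. shd, which catalyses the last hydroxylation to 20-hydroxyecdysone, was at 3.22 ± 0.399 CPM in induced and 2.08 ± 0.133 CPM in uninduced heads (SD, n = 4 each; log2 fold change 0.63, edgeR adjusted p = 0.00442). Cyp18a1, which inactivates ecdysteroids, was at -0.17 (edgeR adjusted p = 0.0120) and at 0.0085 with scaling to library totals only. With induced replicate 1 as the only induced library, 2 genes of the 7 lists were called higher and 12 lower. A call lost with 1 induced library does not by itself show a smaller difference. Osbp, disp and Cyp18a1 lost theirs at 0.30, 0.30 and -0.25. Other genes that lost theirs had a smaller difference than over all libraries. Among them were CG8112 (0.17, from 0.42) and apolpp (-0.31, from -0.49).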

How the data were processed

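RNA from 8 head libraries (poly(A) RNA, KAPA mRNA HyperPrep, 100-bp paired-end reads) was measured. The authors aligned reads to the Dm6 genome and deposited raw counts per gene and library, which were used for every result. Aligner, counter, annotation and strand mode: not given in the sources used here. A further 8 per-sample columns of normalized values were not used, nor were the columns of the authors' DESeq2 comparison (group means, fold changes, p-values and fit statistics).

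Counts were tested with edgeR 4.0.16 (R 4.3.3; TMM, filterByExpr, quasi-likelihood test, Benjamini-Hochberg adjustment over 9905 genes, threshold 0.05) after a check on simulated data. A standard error is the size of the log2 fold change over the root of its F statistic. Single values were tested with exact permutation tests (SciPy 1.17.1) on log2 of CPM plus 0.1. Depth limits precision most for genes with few counts, and limits from a count of 0 cover counting error only. Coordinates, exon lengths and overlaps are from the Ensembl BDGP6 annotation.

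All 10 members were named, with up to 3 called genes per direction in each list and the 2 profiles nearest to a called member. Genes outside this rule (antennal and midgut markers, Yp1, Yp2, Yp3, Apoltp, Hexo1, Hexo2, Mitf and trpml) were named after their values were seen. Members and lists were chosen with earlier results of these data known, and the lists were written by hand. Alternatives were DESeq2 1.42.0, limma 3.58.1 (voom), other normalizations and filters, a replicate block and leaving out each library, and one was added after the data were seen. Replicate numbers were not taken as pairs. One gene of the lists that the rule would name is not reported here.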

Additional observations from a re-analysis of the deposited data

Results flagged for a closer look

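The groups of 4 libraries examined were those of the members with counts, the ratio of Npc2a to Npc1a, the summed marker lists, the antennal markers and the other genes named. A value was singled out where its gap to the nearest other library, relative to the range of its group, exceeded the 95% critical value of Dixon's test for 4 samples. Of 106 groups, 8 met this, and chance gives about 5.3. Antennal markers made up 4 of the 8, all in induced heads. In induced replicate 1, Obp83a was at 0.273 CPM, Obp83b at 0 and Obp84a at 2.38 CPM, against 10.9 to 12.1, 9.93 to 10.3 and 3.67 to 3.72 CPM in the other induced libraries. Obp56d was at 1061 CPM in induced replicate 4, and at 976 to 982 CPM in the other induced libraries. Npc2f was at 2.14 CPM in uninduced replicate 3, and at 1.38 to 1.48 CPM in the other uninduced libraries. The muscle markers summed to 1932 CPM in uninduced replicate 4, against 2231 to 2256 CPM in the other uninduced libraries. CG1513 was at 126 CPM in uninduced replicate 4, and at 139 to 141 CPM in the others. ScpX was at 69.8 CPM in induced replicate 2, and at 73.2 to 73.6 CPM in the others.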

How the results depend on the processing

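Of 17 alternatives, scaling to library totals only turned the log2 fold changes of Npc1a, Npc2a, Npc2b and Cyp18a1 to 0.13, 0.10, 0.082 and 0.0085, took Npc2g to -0.17 (adjusted p = 0.103) and gave 0 members lower, 15 genes of the 7 lists lower, and 4488 genes higher and 874 lower of all genes, where the median of all genes moved to 0.18. With induced replicate 1, the only induced library low in antennal markers, alone against the 4 uninduced libraries, chosen after seeing the values and with no spread within the induced group, Npc2h was at -0.71, 2 members were lower, 2 genes of the lists were higher and 12 lower, and 747 genes were higher and 784 lower of all genes. Leaving out 1 library in turn gave -0.06 to -0.02 for Npc1a, -0.13 to 0.0089 for Npc2a, -0.12 to -0.03 for Npc2b, -0.67 to -0.35 for Npc2f, -0.40 to -0.23 for Npc2g and -0.35 to -0.12 for Npc2h, which passed the threshold only without induced replicate 2 (adjusted p = 0.0431). It gave 1 to 2 members lower, 7 to 10 genes of the lists higher and 21 to 26 lower, and -0.11 to 0.08 for the ratio of Npc2a to Npc1a, which turned without induced replicate 2 (2.2e-04) and without uninduced replicate 4 (0.076). Causes were not tested where not named. Same-numbered replicates deviated with correlations of -0.088 to 0.022, so no shared deviation was seen. Whether they shared a culture or a day is not given. With a replicate block Npc2g was at -0.34 (adjusted p = 0.00225), and 1671 genes were higher and 1788 lower. Of 340 combinations of the 20 list genes chosen by the naming rule and alternatives, 309 kept direction and call, 30 lost the call and 1 turned. The 4 libraries per group limit exact tests to p = 0.0286, and 4 members had too few counts to be tested.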
